A study of Mus musculus with 3 samples.

Results

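The cell cycle programme of IEC was described in 45 genes that act in DNA replication, mitosis or the decision to leave G1. They were taken by name from a deposited table of 35824 mouse genes, and all 45 were found in it. The list holds 18 S phase genes (10 for licensing and replication, 4 for nucleotide supply, and the E and A cyclins with their kinase), 16 mitosis genes, 7 G1 regulators and 4 transcription factors. The measurements were SMART-Seq2 RNA-seq estimated counts from 3 libraries of IEC, named ILC3_A, ILC3_B and ILC3_C (A, B and C below). All 3 libraries share one condition: SIO, crypt-derived epithelial structures in a gel matrix, from female CD45.1 C57BL/6 mice aged 6 to 8 weeks per the labels, co-cultured with ILC3 for 4 days, with IEC then sorted by FACS. ILC3 in this system came from the lamina propria of reporter mice and were added to a culture of epithelium alone, so other cells of the gut wall were absent by design. Per the methods of the study, the medium of these co-cultures also held added IL-2, IL-7 and IL-15. Per the labels, A and B entered the final analysis of the study and C did not, for a reason that the sources used here do not give. IEC without ILC3 were not analysed here, so nothing below says what ILC3 changed.

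In the cycle, D cyclins with Cdk4 or Cdk6 release E2F factors from the retinoblastoma protein, and E2F then drives cyclin E, the MCM helicase and the enzymes of nucleotide supply. Later, the kinase Cdk1 with cyclins A and B, and the factors Foxm1 and B-Myb, drive the genes of mitosis, many of them through a CHR element together with CCAAT boxes. In the small intestine, cycling is known to be concentrated in crypt stem cells and in the transit-amplifying cells above them, while Paneth cells, goblet cells and enterocytes have left the cycle. In bulk RNA, fewer cycling cells and less RNA per cycling cell cannot be told apart.

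The promoters of the members are shown first because the S phase and mitosis classes, which were set by function, differ there in how often 2 short sequence words, CHR and E2F, occur. RefSeq promoter windows on GRCm38.p6, each with 250 bases before and 50 after an annotated start, were matched by symbol for 35 of the 45 members, giving 39 windows. In 35 of the 39 windows the last 30 bases lay in a transcript of the gene on its strand. The Mcm5 window ended at base 75109558, before the gene start at 75109569 in the annotation used for lengths. Both strands were searched for the CHR word TTTGAA, for CCAAT, for the E2F words TTTCCCGC, TTTCGCGC, TTTGCCGC and TTTGGCGC, and for the E-box CACGTG, and no word lies inside another. Of 14 mitosis windows, 11 (78.6%) held a CHR word, against 17.9% of all 32851 windows. CCAAT stood in 13 of the 14 (92.9%), against 37.4% of all windows, and the E2F words in 1. Of 15 S phase windows, 7 (46.7%) held an E2F word, against 2.26% of all windows, and 1 held a CHR word. CCAAT was common in this class too, in 10 of the 15 windows (66.7%). The 7 windows of G1 regulators held no CHR or E2F word. An E-box stood in 2 of them (28.6%, against 7.15% of all windows), those of Cdk4 with 4 copies and of Cdk6. No window was matched for Myc, Ccnd1, Ccnd2, Ccna2, Ccne2, Gins2, Mcm4, Aurkb, Tpx2 and Foxm1. The following stretches, all upstream of the annotated start and written 5′ to 3′ on the strand of the gene, have every such word in capitals.
Cdc20 (chr4:118437344-118437411, minus strand): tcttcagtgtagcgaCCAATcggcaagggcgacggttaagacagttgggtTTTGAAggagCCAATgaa
Ube2c (chr2:164769686-164769922, plus strand): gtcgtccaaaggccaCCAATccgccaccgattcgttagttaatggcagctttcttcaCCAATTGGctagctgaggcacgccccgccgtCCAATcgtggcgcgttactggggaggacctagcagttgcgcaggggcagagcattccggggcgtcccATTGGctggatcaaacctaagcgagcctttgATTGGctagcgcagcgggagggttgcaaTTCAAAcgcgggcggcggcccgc
Top2a (chr11:99024190-99024431, minus strand): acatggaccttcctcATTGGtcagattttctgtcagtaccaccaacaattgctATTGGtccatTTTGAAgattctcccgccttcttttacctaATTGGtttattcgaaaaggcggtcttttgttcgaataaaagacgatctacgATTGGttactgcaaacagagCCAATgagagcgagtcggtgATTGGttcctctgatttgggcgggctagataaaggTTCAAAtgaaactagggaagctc
Mcm5 (chr8:75109341-75109508, plus strand): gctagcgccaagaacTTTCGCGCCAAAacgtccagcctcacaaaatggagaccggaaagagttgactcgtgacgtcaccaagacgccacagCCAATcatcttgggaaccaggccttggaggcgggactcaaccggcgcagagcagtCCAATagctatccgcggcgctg
Mcm6 (chr1:128359706-128359830, minus strand): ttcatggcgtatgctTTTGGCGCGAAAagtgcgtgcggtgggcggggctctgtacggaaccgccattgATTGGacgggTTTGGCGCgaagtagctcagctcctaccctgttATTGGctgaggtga
Cdc6 (chr11:98907998-98908035, plus strand): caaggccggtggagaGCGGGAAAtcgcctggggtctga
Cdk1 (chr10:69352913-69353135, minus strand): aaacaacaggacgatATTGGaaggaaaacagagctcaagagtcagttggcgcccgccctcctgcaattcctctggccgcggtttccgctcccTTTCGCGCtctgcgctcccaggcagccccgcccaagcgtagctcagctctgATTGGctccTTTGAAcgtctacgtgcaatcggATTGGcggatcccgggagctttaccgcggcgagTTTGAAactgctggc
Cdk4 (chr10:127063348-127063534, plus strand): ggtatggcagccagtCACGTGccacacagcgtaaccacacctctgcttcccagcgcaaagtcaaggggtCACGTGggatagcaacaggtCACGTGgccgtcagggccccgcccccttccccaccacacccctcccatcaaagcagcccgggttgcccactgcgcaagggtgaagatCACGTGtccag
Cdc20, Ube2c and Top2a show the mitotic pattern, a CHR word among CCAAT boxes. Mcm5, Mcm6 and Cdc6 show the E2F word, which in Mcm5 and Mcm6 overlaps another E2F word on the opposite strand, so that both appear as 1 longer run of capitals. In Ube2c, 2 CCAAT words on opposite strands overlap to make such a run. Cdk1 carries CHR, CCAAT and E2F words, and Cdk4 carries the E-box alone. The mitosis windows without a CHR word were those of Birc5, Bub1 and Ccnb1. Of the E2F words, those of Mcm3 lie after the annotated start and are not shown. The E2F words of Cdk2, Cdt1, Mcm7 and E2f2 are not shown either. Other genes of the same functions held these words as well: a CHR word in 34 of 56 windows (60.7%) of other mitosis genes, and an E2F word in 12 of 49 windows (24.5%) of other replication genes. A word in a window is a description of the letters and does not show binding.

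Every member was expressed in every library. The scarcest value was Ccne2 in A with 198 counts (95% exact Poisson interval 171 to 228, which covers counting error only because PCR copies were not marked), and all 45 members passed the filter on low counts. Library totals ran from 17946361 to 28913885 counts. Levels below are CPM, counts per 1000000 counts of the library after edgeR's TMM scaling, or CPM per kilobase of the longest annotated transcript where genes are compared with each other. Together the members took 0.595%, 0.608% and 0.664% of the counts of A, B and C. Their summed CPM was 5891, 6091 and 6699 (in A, B and C, the order kept throughout), or 5991 ± 141 over A and B (SD, n = 2) and 6227 ± 421 over all libraries (SD, n = 3). The 8 epithelial markers summed to 10910, 11710 and 12740 CPM, with C above both A and B in 4 of them and below both in 3, among these Epcam at 1663, 1720 and 1133 CPM. The ILC3 markers Ptprc, Il7r, Il22 and Il23r had at most 2 counts in any library, and 9 of 18 ILC3 and lymphocyte markers were at 0 in all 3 libraries. Of the 18, however, 7 passed the filter on low counts. Thy1 had 16, 87 and 3 counts, Ltb 6, 5 and 46, and Tcf7 39, 130 and 177. Laptm5 had 51, 1 and 96 counts, and Cd2 and Lta had 23 and 28 in B and 0 in A and C.

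**Figure D1:**
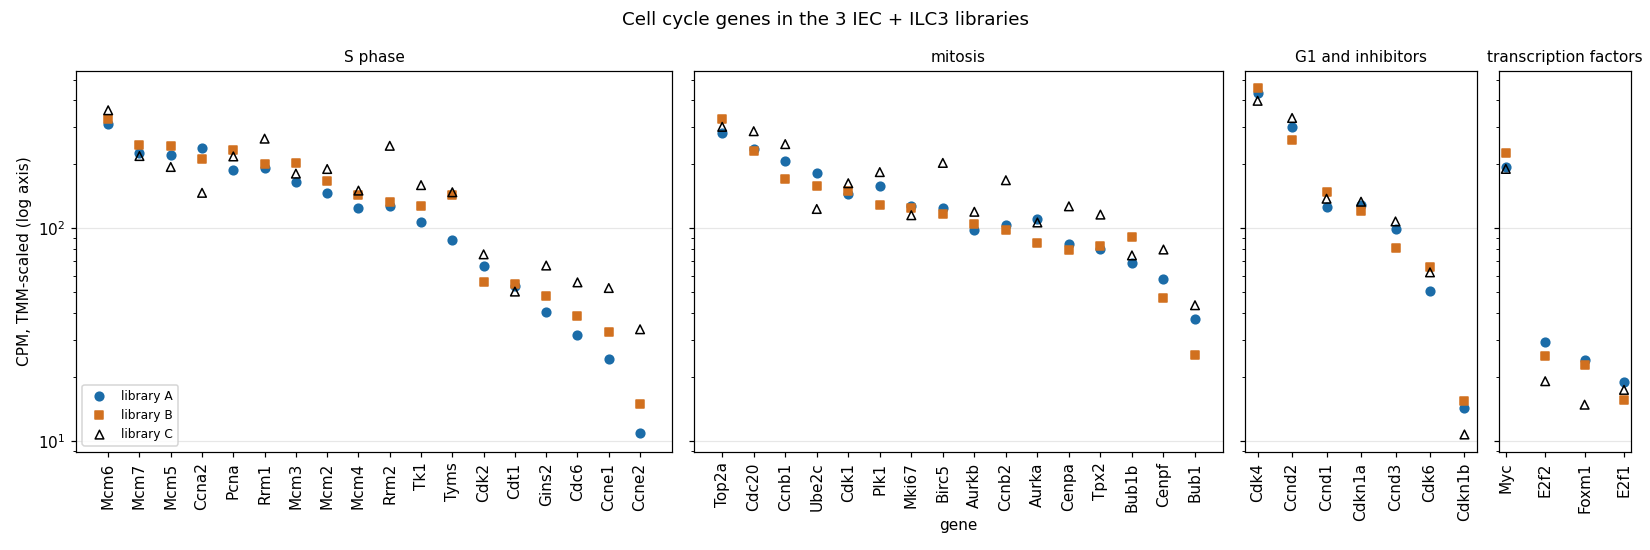
CPM (TMM-scaled, log axis) of the 45 cell cycle genes in libraries A (filled circles), B (filled squares) and C (open triangles), 1 point for each library, grouped by class and ordered by the mean of A and B. Within each class the genes span a far wider range than the libraries do, and Ccne2, Ccne1 and Rrm2 are the S phase genes in which C stands furthest above A and B.

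Per kilobase, the most abundant member was Cdk4, the G1 kinase, at 210.5, 222.8 and 194.1 CPM per kilobase in A, B and C. It was followed by Pcna, the sliding clamp of the DNA polymerases, at 123.5, 154.2 and 143.7 CPM per kilobase. Cdc20, the activator of the anaphase-promoting complex, came next at 131.8, 128.4 and 159.9 CPM per kilobase. These 3 genes held the first 3 places in the mean of A and B, and Cdc20 lay above Pcna in A and in C, so their order is not fixed by these libraries. The places also depend on the length used, here the longest transcript, which for Top2a has 5221 bases against a median of 803. Exons of Cdk4 and Cdc20 overlap exons of Tspan31 and Elovl1 on the opposite strand. Tspan31 was at 138.5, 127.4 and 173.9 CPM and Elovl1 at 150.8, 123.0 and 171.1. Whether reads from these neighbours were counted in Cdk4 and Cdc20 was not tested. At the other end, the kinase inhibitor Cdkn1b was at 3.15, 3.38 and 2.36 CPM per kilobase. The mean of A and B was over 50 CPM per kilobase for 18 of the 45 members, which include replication, mitosis and G1 genes and Myc.

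Within the class sums, which are not corrected for length, S phase genes held 2366, 2630 and 2813 CPM. Mitosis genes held 2108, 2024 and 2462 CPM, so the ratio of mitosis to S phase sums was 0.891, 0.770 and 0.875. G1 regulators held 1150, 1148 and 1182 CPM, the smallest spread of the classes, and the 4 factors 266.9, 289.5 and 242.0 CPM. Library B was above A in 16 of 18 S phase genes but in 5 of 16 mitosis genes, against 49.7% of all genes tested. It was above A in 30 of 47 other replication genes and in 32 of 60 other mitosis genes. The low count in the mitosis members was thus not seen in the other mitosis genes. Each library is 1 sample and these differences have no test. The crypt base stem marker sum was 7801, 9555 and 7913 CPM, and the enterocyte marker sum 6322, 4256 and 5324, with all 12 enterocyte markers below A in B. The Paneth marker sum was 13060, 17420 and 19850 CPM, with B above A in 7 of 7 Paneth markers and C above both in 5. This sum was lowest in A and highest in C, as were the sums of S phase genes, epithelial markers and all members. The part of cell type makeup in the class sums was not tested.

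The 6 MCM genes encode the ring-shaped helicase that is loaded at origins in G1 and opens DNA in S phase. Mcm2 was at 42.0, 47.8 and 54.5 CPM per kilobase in A, B and C, and Mcm3 at 48.4, 59.3 and 52.8. Mcm4, the lowest of the 6 in every library, was at 34.7, 40.2 and 42.0 CPM per kilobase. Mcm5 was at 65.8, 72.0 and 57.5 CPM per kilobase. Mcm6 was at 71.3, 74.9 and 82.6, and Mcm7 at 76.5, 83.5 and 74.0. The highest of the 6 was 2.20 times the lowest in A, 2.08 times in B and 1.97 times in C. Among the other licensing genes, Cdt1, a helicase loader, was at 53.9, 54.7 and 50.5 CPM and had the smallest coefficient of variation of all members, 4.23%. Its partner Cdc6 was at 31.5, 38.6 and 55.8 CPM, and Gins2, part of the active helicase, at 40.7, 48.0 and 66.9 CPM. In all 10 licensing and replication genes B was above A, while C was above both in 5 of them (Mcm2, Mcm4, Mcm6, Cdc6 and Gins2), below both in Mcm5, Mcm7 and Cdt1 and between in Mcm3 and Pcna.

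All 4 nucleotide supply genes were lowest in A and highest in C. Rrm2, the small subunit of ribonucleotide reductase and its cell cycle-regulated part, was at 127, 134 and 245 CPM. Its large subunit Rrm1 was at 193, 202 and 265 CPM. Thymidine kinase Tk1 was at 108, 128 and 159.9 CPM, and thymidylate synthase Tyms at 88.1, 144 and 148 CPM. A and B lay close together for Rrm1 and Rrm2, whereas for Tyms the gap between A and B, 0.70 on the log2 scale, was the widest of all members.

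The E cyclins showed the widest spread of all members over the 3 libraries. Cyclin E2, Ccne2, was at 10.9, 14.9 and 33.6 CPM, a coefficient of variation of 61.1%, the highest of all members. Its paralog Ccne1 was at 24.3, 32.6 and 52.5 CPM. The A cyclin Ccna2, which follows cyclin E as S phase proceeds, was instead highest in A and lowest in C, at 239, 213 and 147 CPM. The summed CPM of both E cyclins relative to Ccna2 was 0.147, 0.223 and 0.585. Per kilobase, Ccne1 exceeded Ccne2 in each library, by 3.34, 3.29 and 2.35 times. Their shared kinase Cdk2 was at 66.3, 56.2 and 75.6 CPM. Exons of Ccne2 and Ccna2 overlap exons of other genes on the opposite strand, Ints8 and Exosc9, and SMART-Seq2 does not keep strand. Ints8 was at 27.6, 12.1 and 46.4 CPM and Exosc9 at 48.1, 59.1 and 78.4, and whether reads from these genes were counted in the cyclins was not tested.

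**Figure D2:**
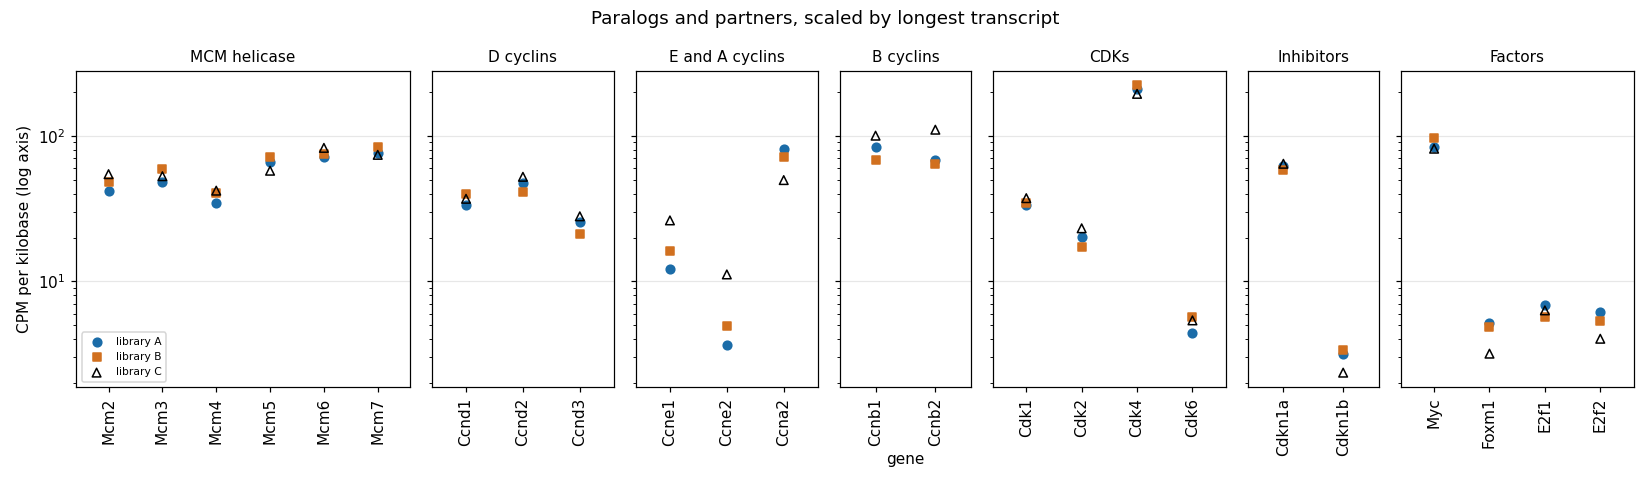
CPM per kilobase of the longest transcript (log axis) of related genes in libraries A (filled circles), B (filled squares) and C (open triangles), 1 point for each library. The MCM genes lie within a narrow band, while Cdk4 stands 36.0 to 47.9 times above Cdk6 and Cdkn1a 17.1 to 27.2 times above Cdkn1b.

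Mitosis began with Cdk1 and its B cyclins. Cdk1 was at 146, 150.1 and 163 CPM in A, B and C. Ccnb1 was at 207, 171 and 249 CPM, and Ccnb2 at 104, 97.99 and 169 CPM. Per kilobase, Ccnb2 was 0.815 times Ccnb1 in A and 0.934 times in B but 1.10 times in C, so the order of the 2 B cyclins differed between libraries. The chromosomal passenger complex corrects the attachment of chromosomes to the spindle. Its kinase Aurkb was at 98.8, 105 and 119.8 CPM, and its subunit Birc5 at 125, 118 and 203 CPM. The centrosomal kinase Aurka was at 110.3, 85.3 and 107 CPM, with its activator Tpx2 at 80.4, 82.9 and 116 CPM. The ratio of Aurka to Aurkb per kilobase was 1.14, 0.829 and 0.912, which gives no fixed order. Polo-like kinase Plk1, which acts from mitotic entry to cell division, was at 159, 129 and 184 CPM.

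Genes of the spindle checkpoint and of mitotic exit differed in which library was highest. Bub1, a checkpoint kinase, was at 37.5, 25.4 and 43.5 CPM, whereas its relative Bub1b was at 68.6, 91.4 and 74.7 CPM, with A and B in the opposite order. Cdc20 was at 236, 230.2 and 287 CPM. Ube2c, the ubiquitin-conjugating enzyme that works with the anaphase-promoting complex, was at 183, 159 and 124 CPM, so C was lowest. The centromere genes Cenpa, a histone H3 variant, and Cenpf, a kinetochore protein, were at 84.8, 79.5 and 127 CPM and at 57.8, 47.3 and 79.6 CPM. The common proliferation marker Mki67 was at 127, 125 and 115 CPM and topoisomerase Top2a at 282, 328 and 301 CPM. Mki67 had a coefficient of variation of 5.06%, the lowest in its class. Cdc20 and Ube2c, both of which carry CHR and CCAAT words, lay on opposite sides of A and B in C. Their log2 fold changes of C over A and B were 0.30 (standard error 0.28) and -0.47 (standard error 0.29). Birc5, whose window holds no such word, lay above A and B in C, as did Ccnb2, whose window holds both. Of the 16 mitosis genes, 11 lay above both A and B in C and 2 below both. Whether the words had a part in these values was not tested.

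Among G1 regulators, all 3 D cyclins, the partners of Cdk4 and Cdk6, were present in each library. Ccnd1 was at 126, 148 and 138 CPM, Ccnd2 at 299, 259.6 and 331 CPM, and Ccnd3 at 99.2, 81.3 and 108 CPM. Per kilobase Ccnd2 was 1.40, 1.04 and 1.42 times Ccnd1, and Ccnd1 was 1.31, 1.88 and 1.32 times Ccnd3. With median transcript lengths the log2 ratio of Ccnd2 over Ccnd1 grew from 0.27 to 2.17. The order of Ccnd1 and Ccnd3 reversed, to a log2 ratio of -0.45 with median lengths and -0.22 with the longest coding transcript. Of the partner kinases, Cdk4 was at 432, 457 and 399 CPM and Cdk6 at 50.7, 65.7 and 62.2 CPM. Cdk4 was thus 47.9, 39.1 and 36.0 times Cdk6 per kilobase (a mean log2 ratio of 5.43, or 3.61 with median transcript lengths). Cdkn1a, the p21 inhibitor, was at 129.6, 120.5 and 134 CPM, and Cdkn1b, the p27 inhibitor, at 14.4, 15.4 and 10.7 CPM. Of the cyclin-dependent kinase inhibitors listed with other G1 regulators, the INK4 gene Cdkn2b was at 173, 148 and 162 CPM.

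The factors that drive these genes were unevenly expressed. Myc was at 194, 226 and 191 CPM, while Foxm1 was at 24.2, 22.7 and 14.8 CPM. Per kilobase Myc was 16.0, 19.8 and 25.6 times Foxm1. E2f1 was at 19.0, 15.6 and 17.4 CPM and E2f2 at 29.4, 25.1 and 19.1 CPM. The ratio of E2f1 to E2f2 per kilobase was 1.12, 1.07 and 1.57, and it reversed to a log2 ratio of -0.74 with median transcript lengths.

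Library C was set against the other libraries to show how far the library left out of the final analysis differed in the cell cycle. No member was called by edgeR's quasi-likelihood test at a Benjamini-Hochberg adjusted p under 0.1, in a fit that called 892 of 13604 genes (6.56%), 1.36% higher and 5.20% lower. Among the 8251 genes at or above the mean level of the scarcest member, the share called was 6.68%. At an unadjusted p under 0.05, 5 members were higher in C (8.25% of all genes tested were) and 0 were lower (14.0% of all genes were). DESeq2's Wald test called 1 member, Rrm2, and 11.9% of all genes. The labels call the libraries biological replicates without naming separate animals or cultures, so p-values reflect library-to-library spread that may be technical. The design has 1 residual degree of freedom, so a missed threshold does not show that C was like A and B.

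Without a test, C lay above both A and B in 26 of 45 members, against 37.3% of all genes tested. It lay below both in 11 members, against 41.2% of all genes. The 26 comprised 12 of 18 S phase genes, 11 of 16 mitosis genes, 3 of 7 G1 regulators and 0 of 4 factors. Of the 4 factors, 3 (Myc, Foxm1 and E2f2) lay below both. Of 60 other mitosis genes, 32 lay above both A and B in C and 18 below both. Their summed CPM was 7473, 8079 and 7859, so C lay between A and B. Of 47 other replication genes, 29 lay above both and 11 below both. The median log2 difference of C from the mean of A and B was 0.29 for S phase genes, 0.33 for mitosis genes, 0.10 for G1 regulators and -0.31 for the factors. It was -0.07 for all genes tested and 0.02 for genes at or above the level of the scarcest member. Without A the median was 0.17 for S phase genes and -0.08 for G1 regulators, whose sign thus rested on A. With a trend with GC content removed it was 0.42 for S phase genes, 0.45 for mitosis genes, 0.17 for G1 regulators and -0.07 for the factors. With a trend with transcript length removed it was 0.43, 0.375, 0.20 and -0.17 in the same order. The fitted median of all genes went from -0.10 to 0.03 under either. In size the median difference over all members was 0.30, against 0.52 over all genes tested and 0.45 over genes at or above the level of the scarcest member. Between A and B the corresponding medians were 0.21, 0.34 and 0.28.

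The 5 members with an unadjusted p under 0.05 were Ccne2, Rrm2, Birc5, Ccnb2 and Ccne1, whose values in each library are given above. The log2 fold change of C over A and B was 1.38 for Ccne2 (SE 0.41, edgeR quasi-likelihood adjusted p = 0.113). For Rrm2 it was 0.91 (SE 0.27, edgeR adjusted p = 0.114). Ccne2 was the single member with a log2 fold change over 1 in size, and 13 members were over 0.5. Birc5 stood at 0.75, Ccnb2 at 0.74 and Ccne1 at 0.88, with adjusted p-values of 0.168, 0.171 and 0.179 from edgeR. At the other end, Foxm1 had a log2 fold change of -0.66 (SE 0.41, edgeR adjusted p = 0.358) and Ccna2 one of -0.62 (SE 0.29, edgeR adjusted p = 0.253). Rrm2 and Ccne2 lay close to the threshold, and each was called under some other settings. Rrm2 was called with at least 10 counts required in every library (adjusted p = 0.0778) and without a filter (0.0351), and Ccne2 with plain library totals (0.0976) and without a filter (0.0274), all from edgeR.

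**Figure D3:**
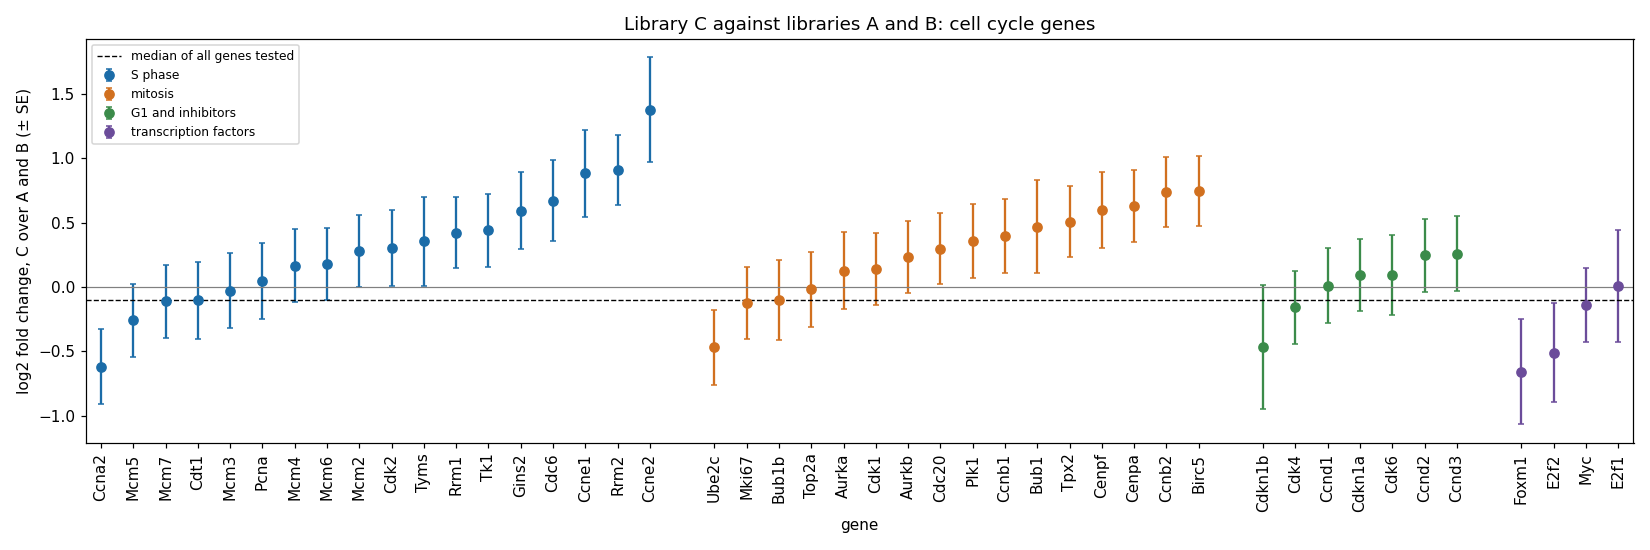
Log2 fold change of library C over A and B from edgeR for each cell cycle gene, with bars of 1 standard error, ordered within class. The dashed line is the median of all genes tested, -0.10. The 45 genes run from -0.66 for Foxm1 to 1.38 for Ccne2 and none passed the threshold.

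Other genes of the same machinery gave 3 calls in 47 replication genes, 0 in 60 mitosis genes, 1 in 43 G1 regulators and 2 in 20 p53 targets, by the same edgeR test, which called 6.56% of all genes. The 3 replication calls are thus a share near that of all genes. At an unadjusted p under 0.05, 11 replication genes were higher in C and 4 lower, 9 mitosis genes higher and 3 lower, 6 G1 regulators higher and 2 lower, and 0 p53 targets higher and 2 lower, against 8.25% of all genes higher and 14.0% lower. DESeq2 called 7, 4, 3 and 2 genes of these lists, against 11.9% of all genes. The replication genes called were Cdc45, Gins1 and Rpa2. Cdc45, which joins the MCM ring and GINS to form the active helicase, was at 51.2, 58.8 and 11.4 CPM, and so was lower in C (log2 fold change -2.27, SE 0.36, edgeR adjusted p = 0.0275). Gins1, a subunit of GINS itself, was at 6.84, 7.10 and 30.5 CPM, higher in C (log2 fold change 2.13, SE 0.44, edgeR adjusted p = 0.0527). Rpa2, which coats single-stranded DNA behind the helicase, was at 66.5, 69.2 and 139 CPM, also higher in C (log2 fold change 1.03, SE 0.27, edgeR adjusted p = 0.0936). With a trend with transcript length removed the log2 fold change of Rpa2 was 1.00 and the call was lost (edgeR adjusted p = 0.109). In the RNA of this 1 library, Cdc45 and Gins1, whose products join in one complex, stood on opposite sides of A and B. The other GINS subunits Gins3 and Gins4, named here after their values were seen, were at 8.99, 9.39 and 24.4 CPM and at 38.9, 48.9 and 60.2 CPM, and were not called.

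**Figure D4:**
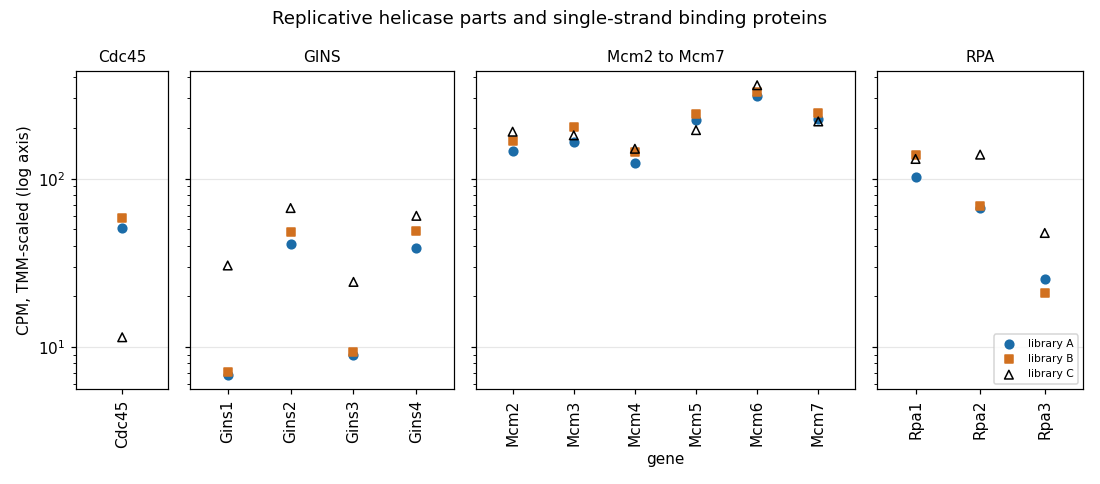
CPM (TMM-scaled, log axis) of Cdc45, the 4 GINS genes, Mcm2 to Mcm7 and the 3 RPA genes in libraries A (filled circles), B (filled squares) and C (open triangles), 1 point for each library. Cdc45 in C lies below A and B at 11.4 CPM, Gins1 in C above them at 30.5 CPM, and the MCM genes stay close together.

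Among the other G1 regulators, Mxd1, a repressor that competes with Myc for its partner Max, was at 45.0, 35.5 and 12.5 CPM and was lower in C (log2 fold change -1.68, SE 0.38, edgeR adjusted p = 0.0653). With the length trend removed its log2 fold change was -1.42 and its call was lost (edgeR adjusted p = 0.109). The p53 targets called were lower in C as well. Eda2r, a receptor of the tumour necrosis factor family, had 71, 98 and 0 counts, at least 39.0-fold lower against a floor of 3 counts in C. Trp53inp1, a stress-induced nuclear protein, had 102, 196 and 3 counts. By contrast Cdkn1a, a member and a p53 target, was at similar CPM in all 3 libraries, as given above. The list named p53 targets also holds the gene of p53, Trp53, which is not counted as a target by function. Trp53 itself was at 272, 279.7 and 259 CPM and its regulator Mdm2 at 44.0, 41.6 and 50.5 CPM, and neither was called. In the marker lists, edgeR called 4 of 8 goblet markers lower in C, against 5.20% of all genes, with the goblet sum at 2325, 2872 and 1567 CPM. It also called lower 1 of 12 enterocyte markers, Npc1l1, and 1 of 5 stroma markers, Vim, with 46, 135 and 0 counts. The stroma markers Col1a1, Col3a1 and Pdgfra had 0 counts in every library, and Col1a2 had 0, 1 and 0. Without a test, C lay above both A and B in 4 of 9 crypt base stem, 5 of 7 Paneth and 4 of 8 epithelial markers. It lay below both in 3, 1 and 3 of them. The median log2 difference of C from the mean of A and B was 0.02, 0.47 and 0.05 for these lists. Whether the mix of cell types had a part in the values of the cell cycle genes in C was not tested.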

How the data were processed

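The data were RNA-seq of IEC from 3 SIO and ILC3 co-cultures, prepared with SMART-Seq2. Trimmomatic 0.39 and Salmon 0.14.1 (versions from the submitters' processing notes) were run by the authors on the Ensembl annotation of GRCm38.p6, followed by tximport. They deposited estimated counts for each gene, which are whole, so rounding changed nothing. Symbols (35506 of 35824 genes) and transcript lengths came from GENCODE M21. The remaining genes made up no more than 0.045% of any library and were kept in its total.

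The members and all lists were chosen with earlier results of these data known, and the classes follow known function. Counts were scaled with TMM factors in edgeR 4.0.16 (R 4.3.3). After filterByExpr, edgeR's quasi-likelihood test (two-sided) set C against A and B, with Benjamini-Hochberg adjustment over 13604 genes at 0.1, the study's threshold; the spread came from A and B alone, C being assumed to vary like them. The test compares these libraries, not conditions, and was tested on simulated data. Standard errors (SE) were derived from the fold change and its F statistic. Log2 differences without a test used CPM + 1. Given by library were the paralog sets, the members most abundant per kilobase and, in the end, all others; of other pathway genes, those called, and Gins3, Gins4, Cdkn2b, Trp53 and Mdm2, chosen after their values were seen. Alternatives were DESeq2 1.42.0 (size factors, Wald test), library totals, other filters, a threshold of 0.05, other pseudocounts, other transcript lengths, removal of trends with length or GC content (loess, span 0.5) and leaving out each library. The use of the longest coding transcript and of genes at or above the level of the scarcest member was added after the data were seen. Python 3.11.15 with pandas 2.3.3 and matplotlib 3.10.9 was used.

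Exons of 11 members overlap those of a gene in the table on the other strand, and unstranded reads there cannot be assigned by strand. Annotated pseudogenes of Pcna, Tyms, Ccnb1, Ccnb2 and Ccnd3 had at most 6 counts. The level of 1 gene on the ILC3 marker list is not reported here.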

Additional observations from a re-analysis of the deposited data

How the results depend on the processing

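No paired analysis was possible because the 3 libraries share one condition and no replicate number occurs in both A and B on one side and C on the other. The number of genes called in C, 892, became 1618 with DESeq2's Wald test, 2402 without a filter and 276 at a threshold of 0.05. Calls higher in C, 185, became 395 with DESeq2's Wald test, 303 with the GC trend removed, 344 with at least 10 counts in every library, 295 with library totals and 825 without a filter. Calls lower in C, 707, became 1223 with DESeq2's Wald test, 1577 without a filter and 430 with the length trend removed. The count of members called, 0, became 1 with DESeq2's Wald test, with at least 10 counts in every library or with library totals, and 2 without a filter. The all-gene median of the fitted log2 fold changes moved from -0.10 to -0.25 without a filter and to 0.03 with the GC or the length trend removed. The causes were not tested.

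Class sums over A and B, 2498, 2066, 1149 and 278.2 CPM for S phase, mitosis, G1 and the factors, were 821.7, 736.2, 389.2 and 107.0 in CPM per kilobase. Over all 3 libraries mitosis was 2198 CPM and G1 1160 CPM, and G1 was 1154 CPM with library totals. When 1 library was left out, sums ranged from 2498 to 2721 CPM for S phase, 2066 to 2285 for mitosis, 1149 to 1166 for G1 and 254.4 to 278.2 for the factors. The median log2 difference in C without A or without B ranged from 0.17 to 0.32 for S phase, 0.24 to 0.40 for mitosis, -0.079 to 0.12 for G1 and -0.36 to -0.31 for the factors. With the GC trend removed it was 0.45 for mitosis, 0.17 for G1 and -0.068 for the factors, and with the length trend removed 0.20 for G1 and -0.17 for the factors.

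With median transcript lengths the log2 ratio per kilobase was 2.17 for Ccnd2 over Ccnd1, -0.45 for Ccnd1 over Ccnd3, 0.91 for Ccne1 over Ccne2, -1.27 for Ccnb2 over Ccnb1, -1.39 for Aurka over Aurkb, 3.61 for Cdk4 over Cdk6, 3.07 for Cdk1 over Cdk2 and -0.74 for E2f1 over E2f2. With the longest coding transcript it was -0.22 for Ccnd1 over Ccnd3 and 0.42 for Cdk1 over Cdk2. In C alone it was 1.23 for Ccne1 over Ccne2, 0.14 for Ccnb2 over Ccnb1, 5.17 for Cdk4 over Cdk6, 4.77 for Cdkn1a over Cdkn1b and 0.65 for E2f1 over E2f2, and in A alone 0.19 for Aurka over Aurkb. The orders of Ccnd1 and Ccnd3, Ccnb1 and Ccnb2, Aurka and Aurkb, and E2f1 and E2f2 reversed in at least 1 of these. With the length trend removed Rpa2 (log2 fold change 1.00) and Mxd1 (-1.42) lost their calls, each at an edgeR adjusted p of 0.109. The scarcest member value was 198 counts, and every comparison of C rests on 1 library.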
